A study of Mus musculus with 6 samples.

Results

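Glucose enters a cell through facilitative transporters, is trapped by hexokinases, split and oxidised to pyruvate by the glycolytic enzymes, and then leaves as lactate, enters the mitochondrion or, upstream, is stored as glycogen. Transcripts of 38 genes along this route were examined in RAW 264.7 cells, a mouse macrophage-like line. They were taken by gene symbol from the platform annotation, each at the probe set that is annotated to that gene alone and has the highest mean over the 6 arrays. Of the 38 genes, 34 were measured in this way, out of 22180 genes with a probe set of their own. Gpi1, Pfkfb1, Aldoa and Eno1 had none and were not analysed here; a probe set that names Aldoa also names Aldoart1.

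The study transfected RAW 264.7 cells with locked nucleic acid GapmeRs, antisense oligonucleotides that lead RNase H to cut the RNA they pair with, at 50 nM with Lipofectamine RNAiMAX, and took RNA after 48 h. There were 3 Control samples, given a non-targeting GapmeR, and 3 Mist-targeted samples, given a GapmeR against the noncoding RNA Mist. No strain, genotype or further treatment separates the groups in the labels, which state neither how many GapmeR sequences were used per group nor whether the replicates were separate cultures. The p-values therefore measure only how these samples scattered, and that scatter may be technical. Mist itself was not analysed here, since no probe set carries its name.

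Values are log2 expression, so a difference of -1 is a 2-fold lower signal, and every difference below is Mist-targeted minus Control. The array medians lay between 4.47 and 4.50, arrays of a group correlated at 0.988 to 0.991 and arrays of different groups at 0.986 to 0.989, and the number of arrays limits the precision. Of 12 macrophage markers 9 had a mean above 6, among them Cd68, Csf1r, Spi1 and Lyz2, while Mrc1, Marco and Mertk did not. None of the 7 measured T and B cell markers (highest mean 4.35) or the 8 epithelial and fibroblast markers (highest 4.62) had a mean above 6. Of these lists 0 genes were called. The macrophage markers had 6 negative and 6 positive differences with a median of -0.0012. The groups did not overlap for 2 that were lower (Ptprc and Cd14) and 1 that was higher (Adgre1, 0.23, limma, adjusted p = 0.45, named after its value was seen). Over all genes 9.97% were lower without overlap and 9.99% were higher. Of the macrophage markers Ptprc (-0.27, adjusted p = 0.32) and Cd14 (-0.28, adjusted p = 0.42) had the smallest p, as had Cd3d (adjusted p = 0.62) and Cd3e (0.71) of the T and B cell markers, and Dcn (0.69) and Cdh1 (0.69) of the others. The summed log2 level of the macrophage markers was 104.96 to 105.11 on the Control arrays and 104.48 to 105.54 on the Mist-targeted arrays, so the ranges overlapped. As the arrays measured whole cultures, fewer cells of a kind and less RNA per cell cannot be told apart.

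In macrophages glycolysis is rate-controlled mainly at uptake, at hexokinase and at phosphofructokinase, and many of its genes are induced by hypoxia-inducible factor (HIF), which binds a short core, ACGTG or GCGTG, in promoters and enhancers. Isoforms of 1 step differ in their control: some are steadily expressed, others respond to oxygen, growth factors or inflammatory signals. Pyruvate dehydrogenase kinases hold pyruvate out of the mitochondrion, and lactate leaves through monocarboxylate transporters.

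Promoter sequence of the members is described first, and whether a core plays a part in the differences was not tested. RefSeq promoter windows, build GRCm38.p6, were matched for 33 of the 34 measured genes (all but Slc2a3), 45 windows in all because some genes have several starts, and the 250 bases before each start were searched on both strands. ACGTG, or CACGT on the other strand, was in 20 of the 45 windows (44.4%) against 16.6% of all 32851 windows of that table, and ACGTG or GCGTG was in 36 (80.0%) against 38.6% of all windows, predicted genes included. The windows were not matched for base composition, and a gene with several starts counted more than once. The 17 measured genes with ACGTG in a window had a median difference of -0.27 and the 16 without had -0.26, with 14 negative differences in each group of genes. This split took ACGTG alone, and most of the 16 held GCGTG. Neither core was found for Eno2 (-1.48), Gys1 (-0.88), Gbe1 (-0.72) and Tpi1 (-0.18). A match is a description, not a site or a cause.

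The 160 bases before the start are printed for the 4 members with the most negative differences, and for Pgk1 and Slc16a1, whose differences were small or positive. Capitals mark ACGTG or GCGTG on either strand.
Eno2, chr6:124769674-124769833, minus strand: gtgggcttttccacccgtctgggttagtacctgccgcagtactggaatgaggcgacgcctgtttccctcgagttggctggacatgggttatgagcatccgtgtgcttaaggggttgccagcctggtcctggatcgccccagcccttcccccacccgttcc
Pfkfb3 (upstream start), chr2:11553930-11554089, minus strand: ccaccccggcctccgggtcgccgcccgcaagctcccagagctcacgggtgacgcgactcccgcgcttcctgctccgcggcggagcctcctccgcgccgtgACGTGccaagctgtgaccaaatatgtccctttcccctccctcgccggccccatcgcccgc
Pfkfb3 (downstream start), chr2:11502091-11502250, minus strand: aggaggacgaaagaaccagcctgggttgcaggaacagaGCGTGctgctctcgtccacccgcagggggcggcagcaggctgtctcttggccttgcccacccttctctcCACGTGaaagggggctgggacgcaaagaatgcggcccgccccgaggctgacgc
Slc2a1, chr4:119108585-119108744, plus strand: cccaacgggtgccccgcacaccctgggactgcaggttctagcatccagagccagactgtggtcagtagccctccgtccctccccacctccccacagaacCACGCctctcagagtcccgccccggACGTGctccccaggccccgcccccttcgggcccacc
Gys1, chr7:45434679-45434838, plus strand: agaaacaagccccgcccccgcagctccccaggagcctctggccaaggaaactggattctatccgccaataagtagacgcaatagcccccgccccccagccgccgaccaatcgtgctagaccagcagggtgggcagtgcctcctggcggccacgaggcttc
Pgk1, chrX:106186940-106187099, plus strand: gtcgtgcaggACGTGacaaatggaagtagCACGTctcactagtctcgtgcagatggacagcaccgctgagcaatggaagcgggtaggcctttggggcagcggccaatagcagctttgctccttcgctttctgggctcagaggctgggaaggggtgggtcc
Slc16a1, chr3:104638504-104638663, plus strand: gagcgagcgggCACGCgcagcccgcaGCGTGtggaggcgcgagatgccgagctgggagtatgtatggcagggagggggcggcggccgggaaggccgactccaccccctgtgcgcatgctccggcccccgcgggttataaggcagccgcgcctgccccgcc
Within these windows Eno2 and Gys1 held neither core, Slc2a1 held a core beginning 36 and another 61 bases before its start, and Pgk1 held 2 cores beginning 131 and 150 bases before its start.

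Most transcripts of the route had lower values with the Mist-targeted GapmeR. Of the 34 genes 28 had a negative log2 difference and 6 a positive difference, where 10601 of all 22180 genes were negative. For 15 of the 34 the difference lay within 0.2 of 0. The median was -0.26, against 0.0069 over all 22180 genes. The groups did not overlap, with all 3 Mist-targeted arrays below all 3 Control arrays, for 18 of the 34; over all genes this held for 9.97%. The reverse order held for 2 of the 34 (Pfkfb4 and Pdk3) and for 9.99% of all genes. An unadjusted p under 0.05 in limma was reached by 15 genes, all lower, against 5.79% of all genes lower, and by 0 genes that were higher, against 5.24%.

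None of the 34 passed the test across all probe sets (limma, adjusted p under 0.05), which 0.415% of all genes did; the smallest adjusted p was 0.061, for Eno2. That call depended on the tested table. When only annotated probe sets were tested, 9 of the 34 were called, all lower: Slc2a1, Hk2, Hk3, Pfkp, Pfkfb3, Aldoc, Eno2, Gbe1 and Gys1 (adjusted p from 0.0016 to 0.048), where 1.80% of all genes were called lower. With the probe sets of each gene averaged, 9 were called where 1.93% of all genes were called lower, and with a variance trend and robust fit 2 were called, Hk3 and Eno2, where 0.658% of all genes were called lower.

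**Figure D1:**
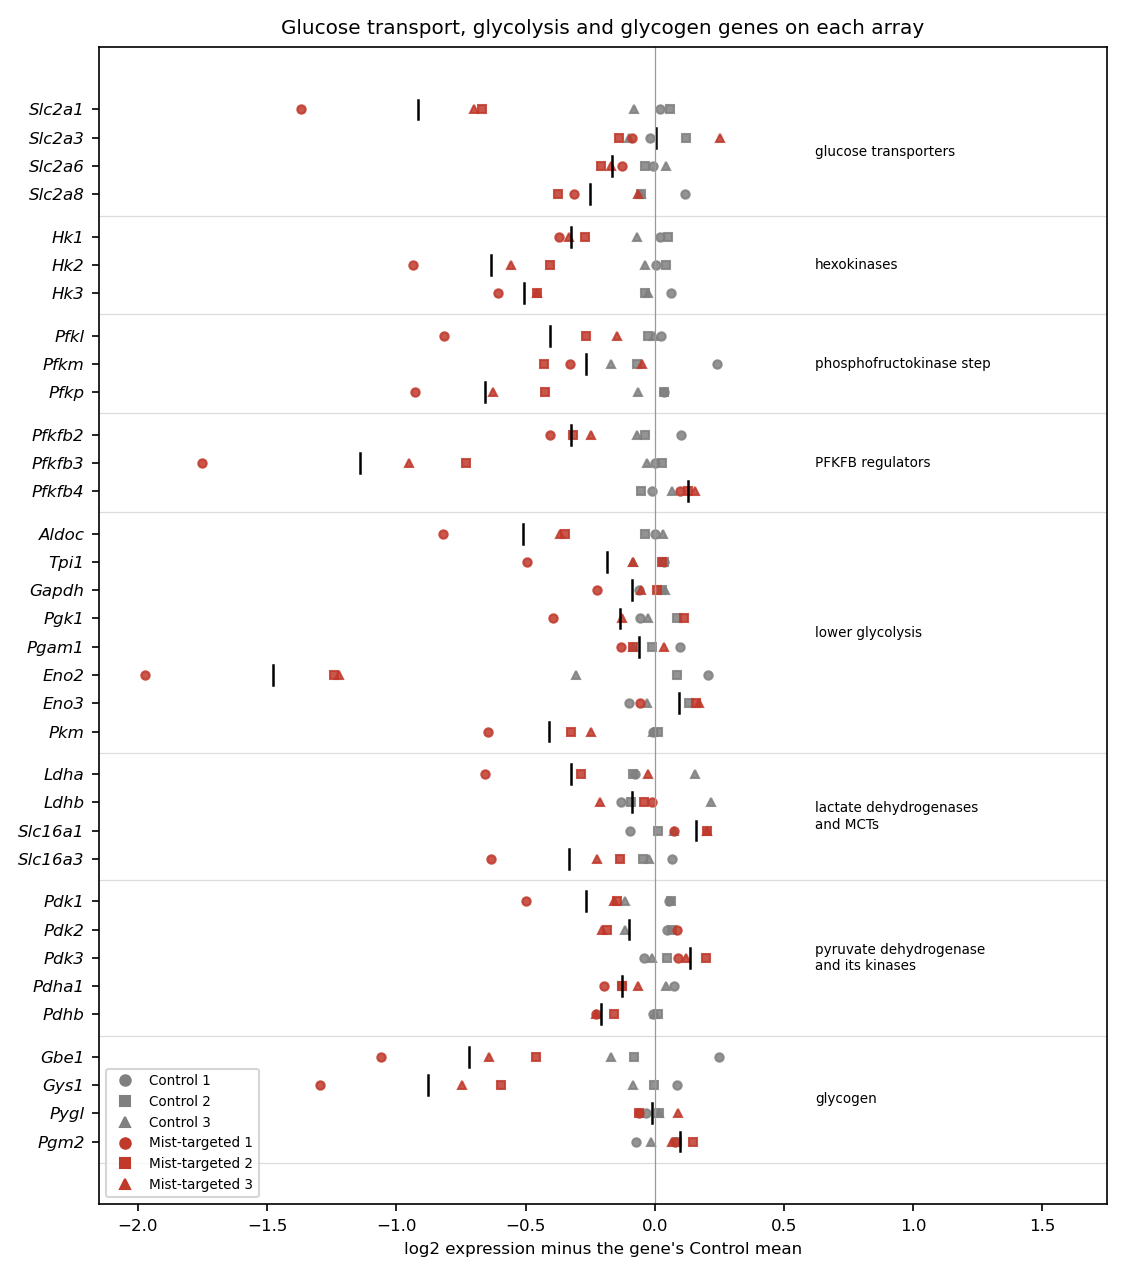
Log2 expression of each of the 34 genes minus its Control mean, with genes in rows by pathway step, 1 point per array (grey Control, red Mist-targeted, marker shape for the replicate number) and a black bar at the Mist-targeted mean. Points of the Mist-targeted arrays lie left of 0 for most rows, farthest for Eno2, Pfkfb3, Slc2a1 and Gys1, and Mist-targeted replicate 1 is often the leftmost.

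At glucose uptake, the transporters differed in size of response. Slc2a1, the basal plasma membrane transporter, read 11.18, 11.22 and 11.08 on the Control arrays and 9.79, 10.49 and 10.46 on the Mist-targeted arrays. All 3 Mist-targeted values lay below every Control value, and replicate 1 was the lowest; the difference was -0.91 ± 0.19 (SE, n = 3 per group; 1.88-fold lower; limma, adjusted p = 0.13). Leaving out Mist-targeted replicate 1 gave -0.69. A second Slc2a1 probe set of low signal (mean 5.53) differed by -0.38 ± 0.12.

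The high-affinity transporter Slc2a3 differed by 0.0067, with a 95% interval of -0.29 to 0.30, and its groups overlapped. Slc2a6, a transporter of macrophage endomembranes, differed by -0.16 ± 0.079 with groups that did not overlap (7.85 to 7.93 Control, 7.68 to 7.76 Mist-targeted). Slc2a8, another intracellular transporter, differed by -0.25 ± 0.11 and ran from 5.60 to 5.77 and from 5.28 to 5.59. Subtracting the difference of each of these genes from that of Slc2a1 left -0.92 ± 0.22 for Slc2a3, -0.75 ± 0.26 for Slc2a6 and -0.67 ± 0.23 for Slc2a8. These 3 differences did not overlap between groups, and each had the smallest p that 3 against 3 arrays allow (exact permutation test, two-sided, p = 0.1, adjusted p = 0.17 over 17 isoform pairs).

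All 3 hexokinases, which phosphorylate glucose and so hold it in the cell, were lower on every Mist-targeted array than on any Control array. Hk2, the inducible isoform, read 9.24, 9.28 and 9.20 in Control and 8.30, 8.83 and 8.68 in Mist-targeted samples, a difference of -0.63 ± 0.14 (adjusted p = 0.15). Hk3, the isoform typical of myeloid cells, read 9.06, 8.96 and 8.97 against 8.39, 8.54 and 8.54. Its difference of -0.51 ± 0.086 had a small spread on both sides (limma, adjusted p = 0.080). Hk1, the housekeeping isoform, read 7.00, 7.03 and 6.91 against 6.61, 6.71 and 6.65, a difference of -0.32 ± 0.082.

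The hexokinases thus differed in the same direction, with a median of -0.51. Hk2 differed by -0.31 ± 0.13 relative to Hk1, without overlap (exact permutation p = 0.1, adjusted p = 0.17), and by -0.12 ± 0.12 relative to Hk3, with overlap (p = 0.4, adjusted p = 0.49). Without Mist-targeted replicate 1 these contrasts were -0.18 and -0.023.

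Phosphofructokinase commits the sugar to glycolysis, and its subunits come from 3 genes named for liver, muscle and platelets. Pfkp, the platelet-type subunit, read 9.86, 9.86 and 9.76 in Control and 8.90, 9.40 and 9.20 in Mist-targeted samples, or -0.66 ± 0.13 (1.58-fold lower; adjusted p = 0.13). Pfkl, the liver-type subunit, read 8.76, 8.71 and 8.73 against 7.92, 8.47 and 8.59, or -0.41 ± 0.17. The groups did not overlap for either gene, but the Pfkl difference was carried largely by Mist-targeted replicate 1, without which it was -0.20. Pfkm, the muscle-type subunit, differed by -0.27 ± 0.14 (-0.15 without Control replicate 1), and its groups overlapped.

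Between subunits, Pfkp differed by -0.25 ± 0.12 relative to Pfkl without overlap (exact permutation p = 0.1, adjusted p = 0.17) and by -0.39 ± 0.22 relative to Pfkm with overlap (p = 0.2, adjusted p = 0.28). The first was -0.14 without Mist-targeted replicate 3, and the second was -0.59 without Mist-targeted replicate 2.

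The PFKFB enzymes make and break the allosteric activator of phosphofructokinase, and their differences had opposite signs. Pfkfb3, whose kinase activity far exceeds its phosphatase activity, read 6.55, 6.58 and 6.52 in Control and 4.80, 5.82 and 5.60 in Mist-targeted samples. It was 2.20-fold lower (-1.14 ± 0.24; limma, adjusted p = 0.14), with a Control SD of 0.030 and a Mist-targeted SD of 0.54. Pfkfb2 read 6.61, 6.47 and 6.44 against 6.10, 6.19 and 6.26, or -0.32 ± 0.091.

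Pfkfb4, in contrast, was higher on each Mist-targeted array (6.14 to 6.20) than on each Control array (5.99 to 6.11), by 0.13 ± 0.079 (limma, adjusted p = 0.69). The pair Pfkfb3 and Pfkfb4 had the largest isoform contrast of the 17 pairs, -1.27 ± 0.30, with values of -1.85, -0.86 and -1.10 on the 3 Mist-targeted arrays relative to the Control mean. Pfkfb4 differed by 0.45 ± 0.078 relative to Pfkfb2, the single pair of the 10 without overlap that was positive. The exact permutation p was 0.1 for both pairs (adjusted p = 0.17).

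**Figure D2:**
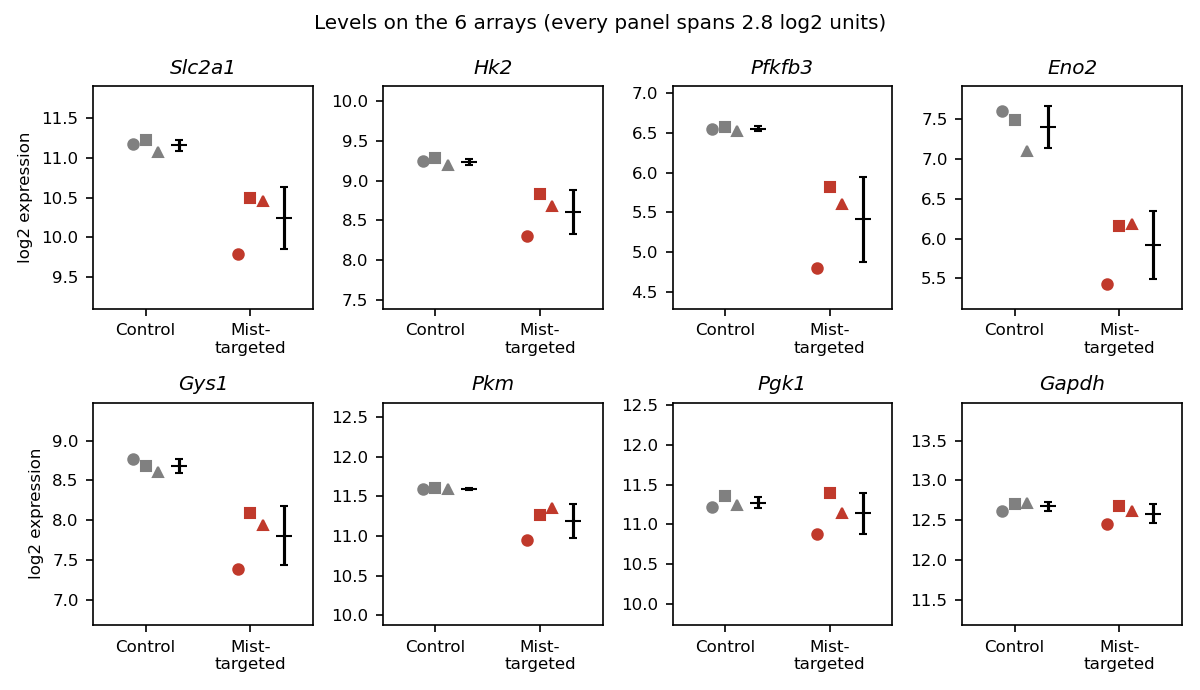
Log2 expression on the 6 arrays for 8 genes, 1 panel per gene, with points for the arrays (marker shape for the replicate number) and a black bar for mean ± SD (n = 3 per group). Each panel spans the same range of log2 units; the groups separate for Slc2a1, Hk2, Pfkfb3, Eno2, Gys1 and Pkm and overlap for Pgk1 and Gapdh.

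In lower glycolysis, Eno2, Aldoc and Pkm were lower without overlap between groups, and the groups overlapped for the other 5 measured genes. Eno2, known as the neuronal enolase, had the most negative difference of all members. It read 7.61, 7.49 and 7.10 in Control and 5.43, 6.16 and 6.18 in Mist-targeted samples, or 2.79-fold lower (-1.48 ± 0.23; limma, adjusted p = 0.061), and -1.23 without Mist-targeted replicate 1. Eno3, the muscle enolase, differed by 0.092 ± 0.11 with overlapping groups.

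Aldoc, the brain-type aldolase, read 8.14, 8.10 and 8.17 against 7.32, 7.79 and 7.77, or -0.51 ± 0.14. Pkm, the pyruvate kinase that closes the pathway, read 11.59, 11.61 and 11.59 against 10.95, 11.27 and 11.35, or -0.41 ± 0.12 (adjusted p = 0.27). The groups did not overlap for these 2 genes. Pkm has splice forms of different activity, which a single value per gene does not separate.

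The other enzymes of this stretch overlapped between groups. Triosephosphate isomerase, Tpi1, differed by -0.18 ± 0.14 and phosphoglycerate kinase, Pgk1, by -0.13 ± 0.14; without Mist-targeted replicate 1 they were at -0.030 and -0.0021. Gapdh, often used as a reference transcript, differed by -0.090 (95% interval -0.31 to 0.13), and its 3 probe sets gave -0.090, -0.10 and 0.13. Pgam1, the phosphoglycerate mutase, differed by -0.061 ± 0.091, but a second probe set of lower signal by -0.48 ± 0.26. The mouse genome holds processed copies of several of these genes, and which probe sets also measure such copies was not checked.

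Some members of this stretch are near neighbours on chromosome 6. By RefSeq gene order, 2 protein-coding genes lie between Eno2 (-1.48) and Tpi1 (-0.18), and 18 lie between Tpi1 and Gapdh (-0.090). The median over the 8 measured genes of lower glycolysis was -0.16, and -0.028 without Mist-targeted replicate 1.

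At the exit to lactate, lactate dehydrogenase A (Ldha), which favours lactate formation, ranged from 8.05 to 8.29 in Control and from 7.48 to 8.11 in Mist-targeted samples. The groups overlapped, and the difference was -0.32 ± 0.16 (-0.16 without Mist-targeted replicate 1). Ldhb had a low signal (4.36 to 4.79 over the 6 arrays) and differed by -0.087 ± 0.12.

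The 2 monocarboxylate transporters had differences of opposite sign. Slc16a3, the lactate exporter of glycolytic cells, read 8.46, 8.35 and 8.37 against 7.76, 8.26 and 8.17, or -0.33 ± 0.14 (-0.18 without Mist-targeted replicate 1), without overlap. Slc16a1, the more widely expressed transporter, had the highest difference of the members, 0.16 ± 0.089, and read 9.57, 9.68 and 9.74 against 9.74, 9.87 and 9.87, so the groups nearly separated. Slc16a3 differed by -0.49 ± 0.14 relative to Slc16a1 without overlap (exact permutation p = 0.1, adjusted p = 0.17).

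At the gate to the mitochondrion differences were small. Pdhb, the beta subunit of the pyruvate dehydrogenase E1 enzyme, read 9.14, 9.16 and 9.15 in Control and 8.92, 8.99 and 8.92 in Mist-targeted samples. That is a difference of -0.21 ± 0.077 with little spread in either group (limma, adjusted p = 0.43). Pdha1, the alpha subunit, differed by -0.13 ± 0.092, and its groups overlapped.

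Of the kinases that switch the complex off, Pdk1, a classical hypoxia-induced gene, differed by -0.26 ± 0.12 (7.58 to 7.76 Control, 7.20 to 7.55 Mist-targeted), without overlap, and by -0.15 without Mist-targeted replicate 1. A second Pdk1 probe set of low signal differed by -0.52 ± 0.11. Pdk3 was 0.14 ± 0.081 higher without overlap, and Pdk2, at a low signal, differed by -0.10 ± 0.11. Pdk1 differed by -0.40 ± 0.11 relative to Pdk3 (exact permutation p = 0.1, adjusted p = 0.17) and by -0.16 ± 0.21 relative to Pdk2 (p = 1, adjusted p = 1). The contrast with Pdk2 turned to 0.044 without Mist-targeted replicate 1.

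**Figure D3:**
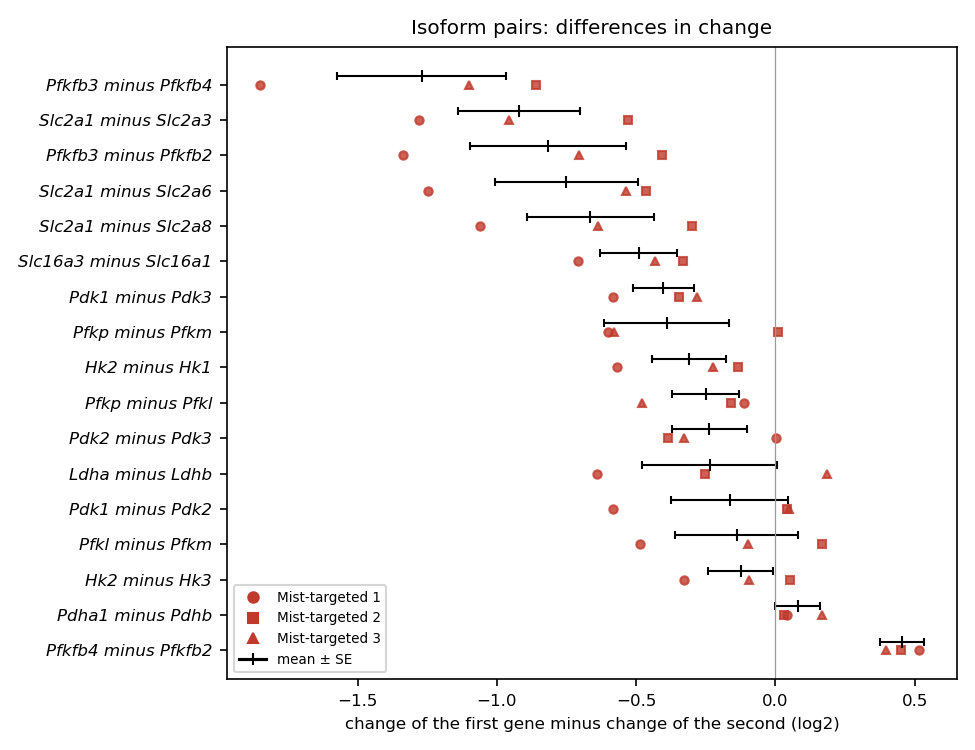
For each of 17 isoform pairs, the log2 change of the first gene minus that of the second: red points are the 3 Mist-targeted arrays relative to the Control mean, and the black bar is the mean ± SE of the difference between groups (n = 3 per group). The pairs run from -1.27 for Pfkfb3 minus Pfkfb4 to 0.45 for Pfkfb4 minus Pfkfb2.

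Over the 17 pairs, the groups did not overlap in 10, and these 10 had p = 0.1, the smallest that the exact permutation test can give for 3 against 3 arrays. No pair could therefore pass an adjusted p of 0.05, and the isoform contrasts stand as sizes with their errors. Several pairs share a gene, such as Slc2a1 or Pfkfb3, so the pairs are not independent. How often other gene pairs separate without overlap was not computed, while single genes did so for 9.97% (lower) and 9.99% (higher).

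In glycogen metabolism, 3 of the 4 members had a negative difference. Gys1, the glycogen synthase of non-hepatic tissue, read 8.77, 8.68 and 8.60 in Control and 7.39, 8.09 and 7.94 in Mist-targeted samples, or 1.84-fold lower (-0.88 ± 0.18; limma, adjusted p = 0.13). Gbe1, the branching enzyme, read 8.63, 8.30 and 8.21 against 7.32, 7.92 and 7.74, or -0.72 ± 0.18. The groups did not overlap for either gene, and without Mist-targeted replicate 1 the differences were -0.67 and -0.55. Pygl, a glycogen phosphorylase, had a low signal (4.10 to 4.25 over the 6 arrays) and differed by -0.011 ± 0.084, and Pgm2, of the phosphoglucomutase family, differed by 0.096 ± 0.084 with overlap.

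Other genes of glycogen metabolism, from a list of 25 with 22 measured, lay on both sides of 0 (12 negative, 10 positive, median -0.035). Of these 1 was called lower across all probe sets tested, against 0.415% of all genes in either direction: Gyg, glycogenin, the protein primer of glycogen. Gyg read 10.83, 10.82 and 10.78 against 10.06, 10.16 and 10.26, or -0.65 ± 0.087 (limma, adjusted p = 0.045). It was no longer called without any single array (adjusted p 0.11 to 0.21), nor after median centring (0.051), although its difference stayed between -0.70 and -0.59 in the fits without an array.

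Epm2a and Phkb were named after their values were seen. Epm2a, which encodes the glycogen phosphatase laforin, read 6.53, 6.55 and 6.22 against 4.44, 5.33 and 4.98, or -1.52 ± 0.22 (adjusted p = 0.055). Phkb, a regulatory subunit of phosphorylase kinase, differed by -0.41 ± 0.10 (adjusted p = 0.19).

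Lists for the branches next to glycolysis had medians nearer 0 than the members; a difference between lists was not tested. Of 10 measured pentose phosphate pathway genes 7 were positive, 0 were called, and the median was 0.083, with Rpia at 0.21 ± 0.099 (adjusted p = 0.57) and Prps1 at 0.27 ± 0.14 (adjusted p = 0.59; 0.14 without Mist-targeted replicate 1). Of 25 genes of gluconeogenesis and the tricarboxylic acid cycle 16 were negative and 9 positive with a median of -0.029. The groups did not overlap for 6 that were lower and 1 that was higher, against 9.97% and 9.99% of all genes. Pck2, the mitochondrial phosphoenolpyruvate carboxykinase, was the 1 that was called, against 0.415% of all genes. It fell from 8.09 ± 0.089 to 7.08 ± 0.25 (mean ± SD, n = 3 each), a difference of -1.01 ± 0.14 (limma, adjusted p = 0.045). Without single arrays its difference lay between -1.14 and -0.89, and it was called only without Mist-targeted replicate 2 (adjusted p = 0.044; 0.12 to 0.20 in the other 5 fits).

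Pcx, pyruvate carboxylase, named after its value was seen, differed by -0.61 ± 0.090 (adjusted p = 0.056). Of 34 further isoforms and regulators of glycolysis 0 were called and 21 were positive, with a median of 0.046. Those with the smallest p were Slc16a7, another monocarboxylate transporter (-0.40 ± 0.10, adjusted p = 0.21), and the urate and sugar transporter Slc2a9 (-0.23 ± 0.10, adjusted p = 0.53; -0.14 without Mist-targeted replicate 1).

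Among a list of 13 transcription factors and other regulators of glycolysis 0 were called (7 negative, 6 positive, median -0.0022). Hif1a, named after its value was seen, read 9.18, 8.99 and 9.08 in Control and 9.06, 9.00 and 8.93 in Mist-targeted samples, with overlap. Txnip, an inhibitor of glucose uptake that is itself induced by glucose, was higher on every Mist-targeted array (10.41 to 10.57 against 10.92 to 11.00), by 0.45 ± 0.085 (adjusted p = 0.11). Its relative Arrdc4 was higher too, from 5.43 to 5.55 against 5.92 to 6.10, by 0.50 ± 0.089 (adjusted p = 0.087). Both were called when only annotated probe sets were tested (limma, adjusted p = 0.017 and 0.011), where 2.9% of all genes were called in either direction.

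HIF-responsive genes outside the pathway were mostly lower on the same arrays, but this list was chosen with earlier results of these data known. Its direction is therefore no independent evidence. Of 16 measured genes 15 were negative, against 10601 of all 22180 genes, and the median was -0.80. Across all probe sets tested 2 were called, both lower, against 0.415% of all genes in either direction. They were Ddit4, an inhibitor of mTORC1 signalling (-1.82 ± 0.16, limma, adjusted p = 0.014), and the endoplasmic reticulum oxidoreductase Ero1a (-1.08 ± 0.13, adjusted p = 0.038). Leaving out single arrays, Ero1a was called in none of 6 fits (adjusted p 0.063 to 0.17) and Ddit4 only without Mist-targeted replicate 1 or 2 (0.041 and 0.027, against 0.070 to 0.090 in the other 4). The most negative difference of the list, named after its value was seen, was that of the peptide hormone gene Adm, -3.00 ± 0.73 (adjusted p = 0.19). Adm read 9.40, 9.48 and 9.00 in Control and 4.34, 7.48 and 7.05 in Mist-targeted samples, so its size leaned on Mist-targeted replicate 1. The medians of this list on Mist-targeted replicates 1, 2 and 3 were -1.11, -0.65 and -0.71 relative to the Control mean, and those of the 34 members were -0.38, -0.19 and -0.16. The part of these genes' regulators in the members' differences was not tested.

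Mist-targeted replicate 1 stood apart from the other arrays for both lists. It was the lowest of the 6 arrays for 23 of the 34 members (67.6%) and for 14 of the 16 HIF-responsive genes (87.5%), and for 19.3% of all genes. Among the 3 Mist-targeted arrays alone it was the lowest for 27 members and 14 HIF-responsive genes, and for 7981 of all 22180 genes. Without it the members' median was -0.19 and 27 of 34 were negative, and the HIF-responsive genes' median was -0.66. The number of members below their Control mean was 29 on replicate 1, 26 on replicate 2 and 26 on replicate 3, so most members were lower on each Mist-targeted array.

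**Figure D4:**
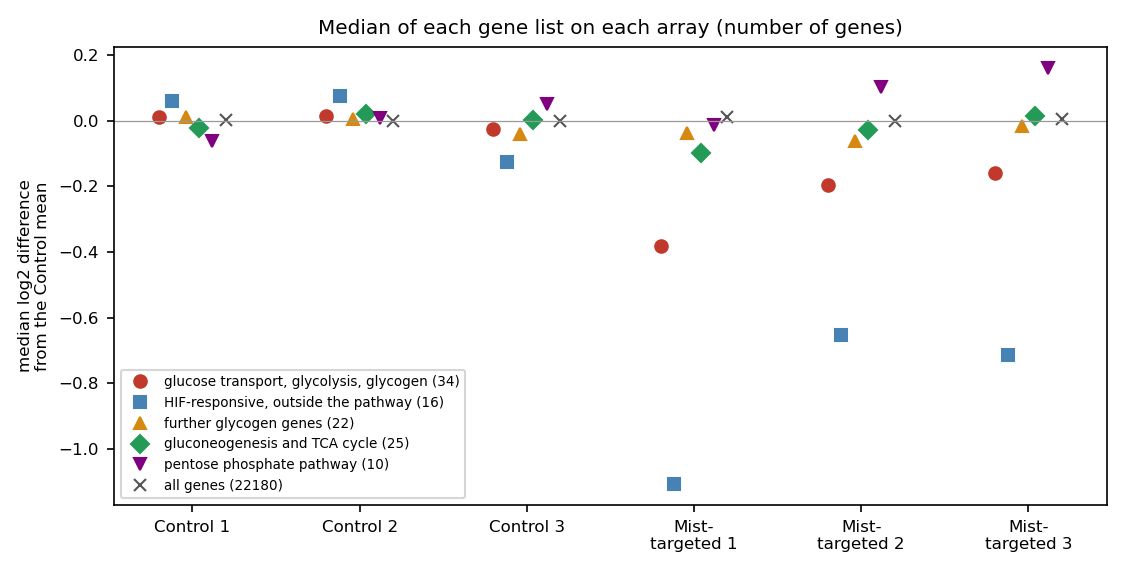
Median log2 difference from the Control mean on each of the 6 arrays for the 34 members, 4 further gene lists and all genes (number of genes in the legend). The members lie at -0.38, -0.19 and -0.16 on the Mist-targeted arrays and the HIF-responsive genes at -1.11, -0.65 and -0.71, while all genes stay near 0.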

How the data were processed

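RNA of 6 RAW 264.7 samples, 3 Control and 3 Mist-targeted, was measured on expression arrays; per the labels' protocols, RNA was purified on columns with DNase treatment and 5 µg per sample was biotin-labelled. The authors deposited log2 expression values, 1 column per array. Per the submitters' processing notes, RMA and Partek were used; their versions, settings and roles, and a genome build, are not given in the sources used. RMA as usually run gives arrays a shared distribution, which would reduce a change common to most transcripts. Values ran from 2.50 to 14.1 and were used as deposited. No 2 columns were identical.

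Of 41345 probe sets, the platform annotation lists 23521 with 1 gene, 1814 with several and leaves 16010 unlisted, which are unnamed here. Differences, SE and p-values came from a two-sided moderated test with group alone in the model (limma 3.58.1, R 4.3.3; prior degrees of freedom 3.48), fitted on all 41345 probe sets with Benjamini-Hochberg adjustment over all of them; a call is an adjusted p under 0.05. The fit was checked on simulated data with independent noise and changes larger than that of any member, so the check does not cover smaller differences. Intervals are 95%. For isoform pairs, the per-array difference of the log2 values was compared between groups by an exact two-sided permutation test, with an SE from the pooled SD. Python 3.11.15 with pandas 2.3.3 searched promoters, and matplotlib 3.10.9 drew plots.

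The members, lists, pairs and tests were chosen with earlier results of these data known, so lists are described by counts and medians. All members are named; every array's value is given for those with an unadjusted p under 0.05 and for the smallest p of each step. Of each other list, up to 4 called genes are named, or the 2 with the smallest p where none was called. The alternatives concerned the variance (trend and robust, unmoderated, array weights, a replicate block), the probe sets (without the dimmest 40%, annotated only, averaged per gene), the scaling (quantile, median centring) and each array left out.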

Additional observations from a re-analysis of the deposited data

How the results depend on the processing

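Of the 34 members, 0 were called (limma, 15 at an unadjusted p under 0.05), and 0 were called with the dimmest 40% of probe sets left out (33 members tested), quantile normalization, median centring, array weights, no moderation or any 1 array left out. With trend and robust variance 2 were called, with annotated probe sets only 9, and with the probe sets of each gene averaged 9. In the last 2 settings fewer features were tested, and the prior degrees of freedom were 7.66 and 7.91 in place of 3.48; over all genes the calls went from 92 to 643 and 698, and to 241 with trend and robust variance. The members' median stayed between -0.27 and -0.23 over the alternatives that keep all arrays and ranged from -0.32 to -0.19 when each array was left out in turn. Members whose groups did not overlap numbered 20, counted in either direction, and 19 after quantile normalization. They numbered 21 to 25 with 1 array left out, where 2 against 3 arrays separate more easily. No isoform pair was called in any setting, which the smallest possible p of 0.1 prevents.

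With the replicate number as a block 0 members and 0 genes were called, and 15 members had an unadjusted p under 0.05. The deviations of same-numbered arrays correlated at 0.20, 0.096 and 0.033, and those of differently numbered arrays at -0.15 to 0.060. Each Mist-targeted array correlated best with the same-numbered Control array, whereas Control replicate 3 correlated best with Mist-targeted replicate 2. Whether the numbers pair the samples cannot be told from these values, and the main fit used group alone. Gyg, Pck2, Ddit4 and Ero1a were not called with the block or without moderation. With 3 arrays per group, only large or very even differences could be called. Signals below about 5, as for Ldhb, Pdk2 and Pygl, have no background measure here. That limit also covers Mist-targeted values of some genes with large differences. These are Ddit4 (3.91, 4.50 and 4.26), Epm2a on replicates 1 and 3 (4.44 and 4.98), and replicate 1 for Pfkfb3 (4.80) and Adm (4.34).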
